A study of Mus musculus with 40 samples.

Results

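The immediate early response genes examined here were 10 genes, namely Fos, Fosb, Jun, Junb and Atf3, which encode subunits of AP-1 type transcription factors, Egr1, a zinc finger transcription factor, Ier2 and Ier3, named as immediate early response genes, and Dusp1 and Zfp36, which encode feedback inhibitors. They were chosen by name from the 55401 genes of the count table, and all 10 were found. RNA sequencing of renal cortex had been carried out on 40 male C57BL/6J mice, 1 library per mouse and 5 mice in each of 8 groups. Akita mice were heterozygous for the Ins2-Akita allele, which is carried in the germ line and causes insulin-deficient diabetes, and the controls were their wild type (WT) littermates. In the ethanol arm, WT and Akita mice received the vehicle, 10% ethanol in water, or MitoGamide at 10 mg/kg, by daily oral gavage from 6 to 22 weeks of age. In the water arm, WT and Akita mice received water or MitoQ, for which the dose was not given in the sources used here, and the protocol in their labels gives the same ages. MitoGamide and MitoQ are both mitochondria-targeted compounds.

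Immediate early genes are transcribed within minutes of a stimulus such as a growth factor, a stress or a hormone, without the need for new protein. MAP kinases reach their promoters through serum response factor, the ternary complex factors and CREB, and the Fos and Jun proteins then pair to form AP-1. The response is short because DUSP1 dephosphorylates MAP kinases and because ZFP36 binds AU-rich elements and speeds the decay of short-lived mRNAs. In kidney these genes are known to react to injury and to tissue handling, and in bulk cortex fewer expressing cells and less RNA per cell cannot be told apart.

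Total counts ranged from 9106654 to 24321424 per library. As labelled, the tissue carried proximal tubule markers in every library, with the summed level of 6 marker genes between 7607 and 15415 CPM (read counts scaled to a common library size), and the 3 adrenal markers summed to at most 6.60 CPM. The 3 libraries least like the other 39 were WT mouse 3 on MitoQ, with a median correlation of 0.875, Akita mouse 2 on water, with 0.906, and WT mouse 3 on water, with 0.911. For the early response genes, medians and counts of calls in the comparisons that include these libraries are given with and without them. Counts over the lists of related genes and heat shock genes are given with them only. The water mouse WT 1 carried liver transcripts, with the 3 liver markers at 338 CPM, and none of its values stood apart among the early response genes.

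In GRCm38, Fos lies at chr12:85473890-85477273 on the plus strand and Fosb at chr7:19302696-19310051 on the minus strand. Jun lies at chr4:95049034-95052222, Junb at chr8:84974484-84978718, Atf3 at chr1:191170296-191218039 and Ier2 at chr8:84661331-84662852, all on the minus strand. Ier3 lies at chr17:35821684-35822923 on the plus strand, whereas Dusp1 at chr17:26505590-26562128 and Zfp36 at chr7:28376784-28380253 lie on the minus strand. All 10 are protein-coding, and each value is the sum over the transcripts of the gene. Junb and Ier2 share chromosome 8, Ier3 and Dusp1 chromosome 17, and Fosb and Zfp36 chromosome 7.

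Promoter sequences of 8 of the 10 genes were found in RefSeq (GRCm38.p6). The 200 bases before the start site (positions -200 to -1, with -1 next to the start) are shown for Fos and Dusp1, which hold the cyclic AMP response element core, and for Fosb and Zfp36, which hold other elements of the early response. Each is written 5′ to 3′ on the strand of the gene, from chr12:85473690-85473889 for Fos, chr7:19310046-19310245 for Fosb, chr17:26508473-26508672 for Dusp1 and chr7:28379229-28379428 for Zfp36. Capitals mark matches to the cyclic AMP response element TGACGTCA or its 6-base core TGACGT, to the EGR element GCGGGGGCG, to the CArG box bound by serum response factor, and to TATAAA.
Fos: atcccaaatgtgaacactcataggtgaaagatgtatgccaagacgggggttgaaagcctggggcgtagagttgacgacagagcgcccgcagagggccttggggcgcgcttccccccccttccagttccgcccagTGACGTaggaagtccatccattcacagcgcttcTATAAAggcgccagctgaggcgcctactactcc
Fosb: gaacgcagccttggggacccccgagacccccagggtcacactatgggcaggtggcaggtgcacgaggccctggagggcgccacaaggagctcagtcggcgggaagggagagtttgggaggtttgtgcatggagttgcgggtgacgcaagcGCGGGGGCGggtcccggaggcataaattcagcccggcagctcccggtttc
Dusp1: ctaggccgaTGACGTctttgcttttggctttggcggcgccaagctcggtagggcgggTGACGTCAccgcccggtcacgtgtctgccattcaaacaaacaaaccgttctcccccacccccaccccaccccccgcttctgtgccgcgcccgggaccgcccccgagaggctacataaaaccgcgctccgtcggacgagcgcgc
Zfp36: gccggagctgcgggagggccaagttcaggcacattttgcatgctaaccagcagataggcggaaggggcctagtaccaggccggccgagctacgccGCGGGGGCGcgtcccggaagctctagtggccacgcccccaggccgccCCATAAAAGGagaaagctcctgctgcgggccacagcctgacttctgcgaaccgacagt

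Both strands of positions -250 to -1 were searched. TGACGT was found in Fos at -66 to -61, in Dusp1 at -191 to -186 and inside its TGACGTCA at -143 to -136, and in Atf3 at -8 to -3, and it occurs in 6.47% of 32851 promoters of this length. The whole element TGACGTCA, which always contains the core, was found in Dusp1 and occurs in 1.55% of promoters. The CArG box was found in Zfp36 at -58 to -49 and occurs in 1.47%. GCGGGGGCG was found in Fosb at -50 to -42 and in Zfp36 at -105 to -97 and occurs in 2.57%. TATAAA was found in Fos at -33 to -28 and occurs in 12.4%. The letters TGACTCA (4.46% of promoters) and GCGTGGGCG (0.536%) were in none of the 8 windows. None of these motifs was found in the windows of Jun, Junb and Ier3. A match describes the letters and is not evidence of binding.

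Scaled by the TMM method of edgeR and divided by exon length, the early response genes spanned more than 2 orders of magnitude. Ier3 had the highest median level over the 40 libraries, at 12.7 CPM per kb, followed by Dusp1 at 8.73, Jun at 7.31, Zfp36 at 3.98, Junb at 3.47 and Ier2 at 2.20 CPM per kb. Egr1 stood at 0.881, Atf3 at 0.433, Fos at 0.348 and Fosb at 0.0563 CPM per kb. Over the 40 libraries the levels of neighbours in this order overlapped, for example 6.45 to 34.2 CPM per kb for Ier3 and 4.35 to 19.6 for Dusp1. Among genes above the minimum mean of 10 counts, the median level of Ier3 was above 87.5% and that of Fos above 11.5%. Fos therefore rested on 1 to 63 counts per library, Atf3 on 4 to 47 and Fosb on 0 to 40, against 158 to 1601 for Dusp1. The 2 libraries with 0 Fosb counts, both from WT mice on MitoQ, allow up to 3 counts each, or 0.213 and 0.243 CPM, counting error alone considered.

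**Figure D1:**
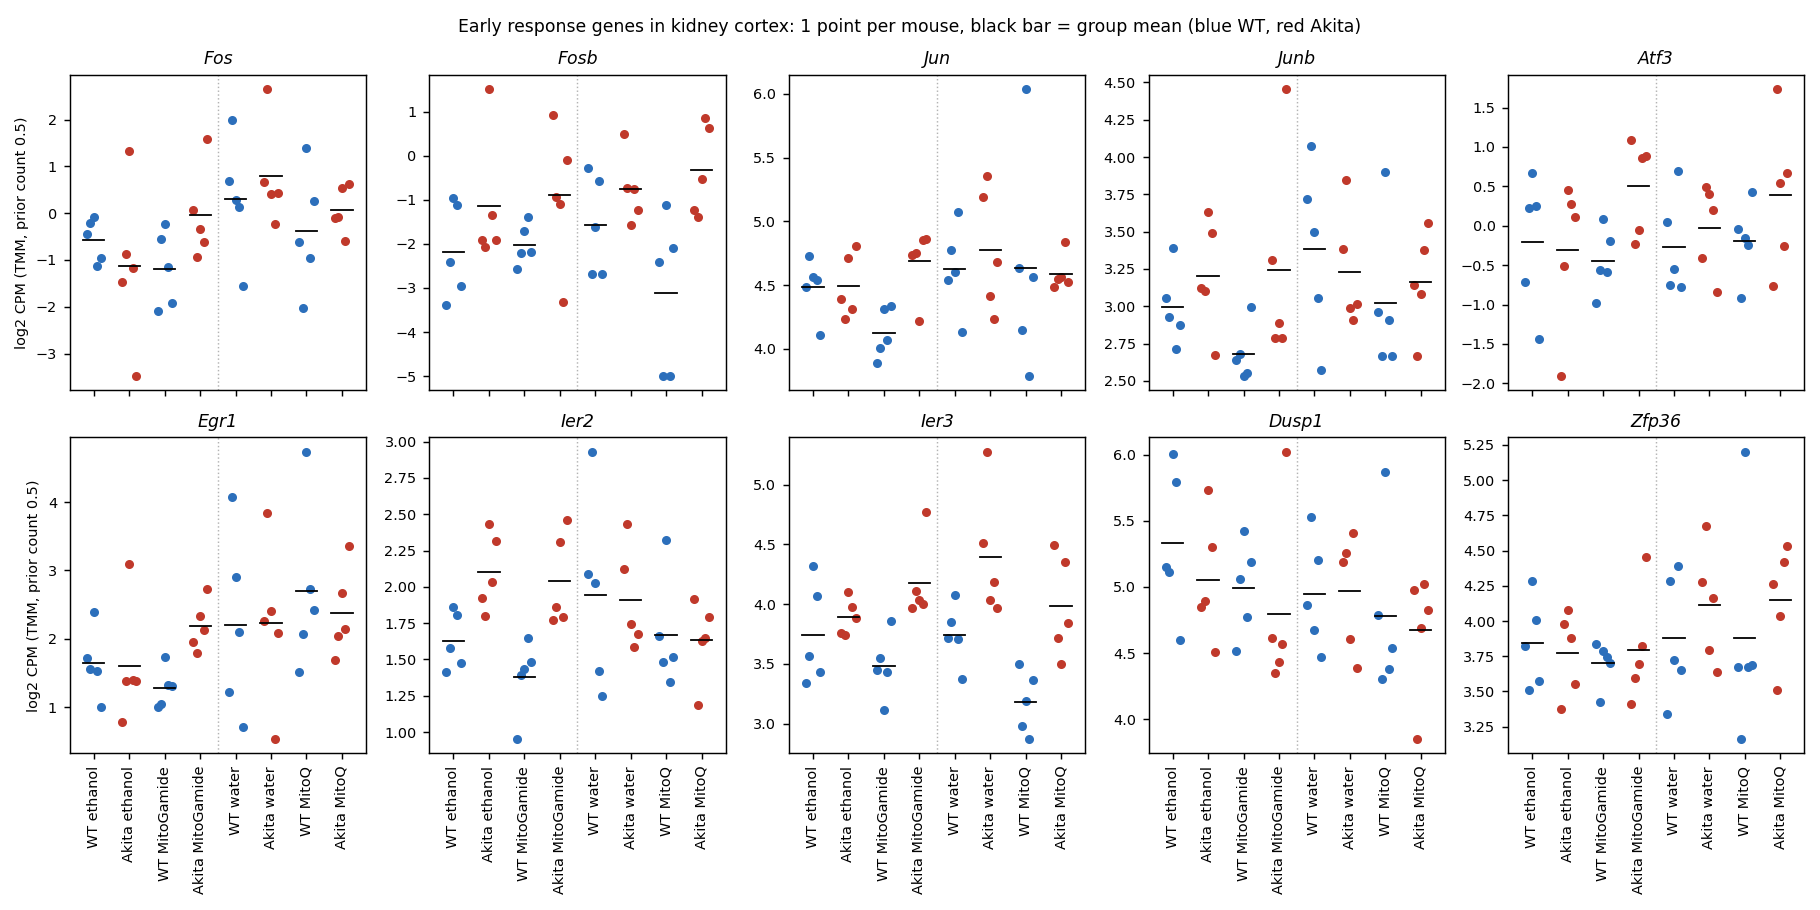
Level of each early response gene in each mouse, as log2 CPM (TMM scaling, prior count 0.5), for the 8 groups of 5. Points are mice, black bars group means, blue WT and red Akita; the dotted line parts the ethanol from the water arm. The 5 Akita mice on MitoGamide lie above the 5 WT mice on MitoGamide for Egr1, Ier2 and Ier3.

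Whether a gene differed anywhere among the 8 groups was tested first, in a single fit over 40 libraries. Of the 9 early response genes with enough counts, Ier3 and Ier2 passed edgeR's quasi-likelihood test, with adjusted p = 0.000556 and 0.0429, beside 64.3% of all genes tested. A share of 2 in 9 is thus below that background. Fos had an adjusted p of 0.0642 and Egr1 of 0.0931 in the same test, and Jun, Junb, Atf3, Dusp1 and Zfp36 ranged from 0.206 to 0.597. Fosb was under the count minimum. Ier3 passed under all 11 alternative settings, with adjusted p from 3.16e-06 to 0.0119, and Ier2 under 7 of the 11. Both passed without the libraries that stood apart.

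Ier3, whose product is a stress-induced regulator of survival and of the ERK pathway, had its 4 highest group means in the 4 Akita groups. The levels were 13.5, 13.4, 17.2, 15.7 and 14.7 CPM in the 5 Akita mice on ethanol, against 10.1, 11.8, 19.9, 16.7 and 10.8 CPM in the 5 WT mice on ethanol, so that these groups overlapped. On MitoGamide, Ier3 stood at 15.6, 17.2, 16.3, 16.0 and 27.3 CPM in Akita mice and at 10.9, 11.6, 8.63, 10.8 and 14.5 CPM in WT mice. All Akita mice on MitoGamide were above all WT mice on MitoGamide. On water, Ier3 stood at 22.8, 38.7, 16.4, 18.2 and 15.6 CPM in Akita mice and at 13.1, 14.4, 16.9, 13.0 and 10.3 CPM in WT mice. On MitoQ the 5 Akita values were 22.5, 13.1, 11.3, 20.4 and 14.3 CPM and the 5 WT values 11.3, 7.86, 9.08, 7.29 and 10.3 CPM. The MitoQ groups did not overlap either, although the lowest Akita mouse and the highest WT mouse were nearly level. The group means ran from 9.16 ± 1.65 CPM (SD, n = 5) in WT mice on MitoQ to 22.3 ± 9.56 CPM (SD, n = 5) in Akita mice on water.

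Fosb, a Fos paralogue that also pairs with Jun proteins, was the other gene with its 4 highest group means in the Akita groups, though at few counts. The group means of Fosb were 0.773, 0.757, 0.643 and 0.938 CPM in Akita mice on ethanol, MitoGamide, water and MitoQ, and 0.245, 0.227, 0.394 and 0.158 CPM in WT mice on the same 4 treatments. Single mice carried much of this, since Akita mouse 3 on ethanol had 40 Fosb counts and the other 4 had 4 to 8. In fits without a count minimum, Fosb passed edgeR's quasi-likelihood test for any difference among the 8 groups (adjusted p = 0.033), beside 10928 of all 39303 genes tested. By the same test Fosb did not pass between genotypes on ethanol (log2 fold change 1.49, SE 0.70, adjusted p = 0.26) or on water (0.80, SE 0.61, adjusted p = 0.805). Group means of Atf3 ran from 0.726 ± 0.214 CPM (SD, n = 5) in WT mice on MitoGamide to 1.53 ± 1.08 CPM (SD, n = 5) in Akita mice on MitoQ. The feedback inhibitor Dusp1 had its highest mean, 42.8 ± 16.4 CPM (SD, n = 5), in WT mice on ethanol, and its lowest, 26.5 ± 7.28 CPM (SD, n = 5), in Akita mice on MitoQ. Zfp36 ran from 13.0 ± 1.37 CPM (SD, n = 5) in WT mice on MitoGamide to 18.3 ± 4.60 CPM (SD, n = 5) in Akita mice on MitoQ. For Atf3, Dusp1 and Zfp36 the ranges of these extreme groups overlapped.

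Between genotypes on ethanol, the comparison that asks what diabetes changed on the vehicle of MitoGamide, 1 of 9 early response genes passed edgeR's quasi-likelihood test, beside 16.4% of all genes. This was Ier2, a small nuclear protein induced by growth factors, which was higher in Akita mice by 0.49 on the log2 scale (SE 0.15, adjusted p = 0.0463). Ier2 stood at 3.76, 3.45, 5.37, 4.05 and 4.95 CPM in Akita mice and at 2.63, 2.96, 3.60, 3.47 and 2.75 CPM in WT mice. The groups met at 3.45 and 3.60 CPM, where the lowest Akita mouse lay under the highest WT mouse. Its direction held in all 16 alternatives, but the call held in 6 of them, and it was lost in 8 of the 10 fits that left out 1 mouse (adjusted p over all alternatives 0.0365 to 0.255). The other 8 genes had log2 fold changes between -0.29 (Dusp1, SE 0.26) and 0.24 (Junb, SE 0.17). The median over the 9 genes was 0.06, beside 0.00 over all genes, and its sign turned with single mice. It was -0.13 without Akita mouse 3 on ethanol (3 genes higher, 6 lower), -0.05 without WT mouse 5 on ethanol and 0.21 without WT mouse 3 on ethanol (8 higher, 1 lower). In these libraries the leukocyte marker sum was 32.1 to 42.7 CPM in Akita and 49.2 to 68.9 CPM in WT mice, with no overlap, and the proximal tubule sum 9093 to 12768 and 12059 to 15415 CPM. Their part in the result was not tested.

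On water, 0 of 9 early response genes passed edgeR's quasi-likelihood test between Akita and WT mice, beside 0.552% of all genes. DESeq2 called 0 of the 9. At an unadjusted p under 0.05 there was 1 early response gene, beside 1384 of all 18304 genes tested. That gene was Ier3, with a log2 fold change of 0.72 (SE 0.25, adjusted p = 0.393), which was 0.44 (SE 0.17, adjusted p = 0.63) without Akita mouse 2. Ier2, the gene called on ethanol, had a log2 fold change of -0.13 (SE 0.32) on water. The difference between both arms was not tested. Without Akita mouse 2 and WT mouse 3, the libraries that stood apart, the median over the 9 genes went from 0.19 to -0.11, with 0 called, and with 1 mouse left out at a time it ran from -0.03, without Akita mouse 2, to 0.30, without WT mouse 4. The leukocyte marker sum was 32.0 to 38.7 CPM in Akita and 49.6 to 59.5 CPM in WT mice on water, with no overlap, and its part in the result was not tested.

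Where the values of both genotypes did not overlap, Akita mice were the higher group for every early response gene concerned. On MitoGamide these were 3 of the 10 genes, Egr1, Ier2 and Ier3, beside 11.9% of all genes tested over 40 libraries that did not overlap in either direction and 5.08% with Akita mice higher. Egr1 stood at 3.82, 3.44, 5.02, 4.32 and 6.62 CPM in Akita mice and at 1.97, 2.03, 3.29, 2.46 and 2.44 CPM in WT mice. Ier2 stood at 3.39, 3.61, 4.92, 3.43 and 5.46 CPM in Akita mice and at 1.90, 2.59, 2.67, 3.10 and 2.77 CPM in WT mice. Jun, the partner of the Fos proteins, overlapped at its edges, with 18.6 to 29.1 CPM in Akita mice and 14.8 to 20.1 CPM in WT mice. On MitoQ the 1 gene was Ier3, beside 2.99% of all genes in either direction and 1.44% with Akita mice higher. On ethanol it was 0 of 10, beside 12.9% and 5.46%, and on water 0 of 10, beside 2.64% and 0.957%. Scaling by library totals alone named Egr1, Ier2 and Ier3 again on MitoGamide, beside 11.6% of all genes in either direction and 3.55% with Akita mice higher, and Ier3 and Fosb on MitoQ, beside 2.07% and 1.83%. These pairs were described and not tested. In the same MitoGamide libraries the summed proximal tubule markers were 8901 to 11034 CPM in Akita and 13011 to 14154 CPM in WT mice, and 4 podocyte markers summed to 203 to 409 and 169 to 251 CPM. The 6 leukocyte markers summed to 32.3 to 46.4 CPM in Akita and 45.3 to 79.2 CPM in WT mice. The 3 principal cell markers summed to 142 to 248 CPM in Akita and 101 to 139 CPM in WT mice, the 3 adipose markers to 20.2 to 34.3 and 10.5 to 19.5 CPM, and the 8 heat shock protein genes to 1758 to 2430 and 2587 to 3934 CPM, none of which overlapped. On MitoQ the principal cell sum was 156 to 208 CPM in Akita and 92.6 to 151 CPM in WT mice, and the leukocyte sum 29.3 to 41.3 and 46.9 to 67.5 CPM, again without overlap. The part of these shifts in the result was not tested.

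MitoGamide was compared with its vehicle in each genotype to see what the compound changed. In WT mice, 0 of 9 early response genes passed edgeR's quasi-likelihood test, beside 0.0% of all genes. At an unadjusted p under 0.05 there were 2, beside 1841 of all 17395 genes tested, and DESeq2 called 0 of the 9. All 9 had lower fitted levels on MitoGamide, with a median log2 fold change of -0.37, beside 0.00 over all 17395 genes tested. The levels of all 45 pairs of early response genes were positively correlated between mice, as given further on, so the 9 directions are not independent of each other. Jun was the gene with the smallest p in this test, lower by 0.37 on the log2 scale (SE 0.12, adjusted p = 0.327). It stood at 14.8, 16.1, 19.8, 16.7 and 20.1 CPM on MitoGamide and at 22.4, 26.5, 23.6, 23.3 and 17.2 CPM on ethanol. A single ethanol mouse thus lay within the MitoGamide range. Junb, another AP-1 subunit, stood at 6.19, 6.38, 5.75, 5.84 and 7.93 CPM on MitoGamide and at 8.26, 7.57, 10.5, 6.52 and 7.30 CPM on ethanol (log2 fold change -0.32, SE 0.14, adjusted p = 0.445, and -0.20 without WT mouse 3 on ethanol). The groups overlapped. Fos was at -0.60 (SE 0.39), Egr1 at -0.42 (SE 0.24), Dusp1 at -0.40 (SE 0.24), Atf3 at -0.40 (SE 0.38), Ier3 at -0.30 (SE 0.19), Ier2 at -0.25 (SE 0.17) and Zfp36 at -0.17 (SE 0.14). WT mice on MitoGamide had the lowest mean level of the 8 groups for 7 of the 10 genes, namely Fos, Jun, Junb, Atf3, Egr1, Ier2 and Zfp36. Every early response gene tested was lower in each of the 16 alternatives, and the median moved to -0.17 without WT mouse 3 on ethanol, which had the highest level of its group for 9 of the 10 genes. Proximal tubule, podocyte, endothelial and leukocyte marker sums overlapped between these 2 groups.

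In Akita mice, 0 of 10 early response genes passed edgeR's quasi-likelihood test for MitoGamide against ethanol, beside 1.26% of all genes. An unadjusted p under 0.05 was reached by 0 of the 10, beside 3564 of all 17051 genes tested, and DESeq2 called 0 of the 10. Fitted levels were higher for 8 and lower for 2, and the median log2 fold change was 0.18. Atf3, a stress-induced repressor of the ATF family, was at 0.73 (SE 0.41) and Fos at 0.66 (SE 0.73). Fos stood at 1.01, 0.492, 0.765, 0.617 and 2.98 CPM on MitoGamide and at 0.329, 0.516, 2.47, 0.410 and 0.0583 CPM on ethanol. In both groups 1 mouse was far above the rest, mouse 5 on MitoGamide and mouse 3 on ethanol. The Fos log2 fold change was 0.04 (SE 0.68) without the former and 1.73 (SE 0.61, adjusted p = 0.179) without the latter. Without Akita mouse 5 on MitoGamide, 5 genes were higher and 5 lower, with a median of 0.02. Without Akita mouse 3 on ethanol, 9 of 9 were higher, with a median of 0.26. In that fit 3 of the 9 had an unadjusted p under 0.05, beside 3207 of all 17080 genes tested. The median was 0.28 without Akita mouse 3 and 0.30 without Akita mouse 4 on MitoGamide. In each of these 4 fits 0 early response genes were called. Over all genes tested, 802 were called without Akita mouse 5 on MitoGamide and 3 without Akita mouse 3 on ethanol. Leaving out Akita mouse 3 or Akita mouse 4 on MitoGamide gave 101 and 30. The test of whether the effect of MitoGamide differed between genotypes passed for 0 of 9 early response genes, beside 0.0% of all genes. Of the 9, 2 had an unadjusted p under 0.05, beside 1435 of all 17256 genes tested, and DESeq2 called 0. All 9 differences were positive, that is, higher in Akita mice relative to WT mice, with a median of 0.57 beside 0.01 over all genes. Jun differed by 0.57 (SE 0.20, adjusted p = 0.579) and Ier3 by 0.61 (SE 0.26, adjusted p = 0.591). Without the mice numbered 5, 8 of 9 were positive and the median was 0.24. The test of the difference uses the 20 libraries of both single comparisons, so their values are not independent. In Akita mice the endothelial marker sum was 333 to 531 CPM on MitoGamide and 261 to 308 CPM on ethanol, with no overlap, the fibroblast sum 87.0 to 153 and 68.7 to 90.3 CPM and the vascular smooth muscle sum 33.9 to 58.6 and 20.1 to 35.9 CPM. Their part in the result was not tested.

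**Figure D2:**
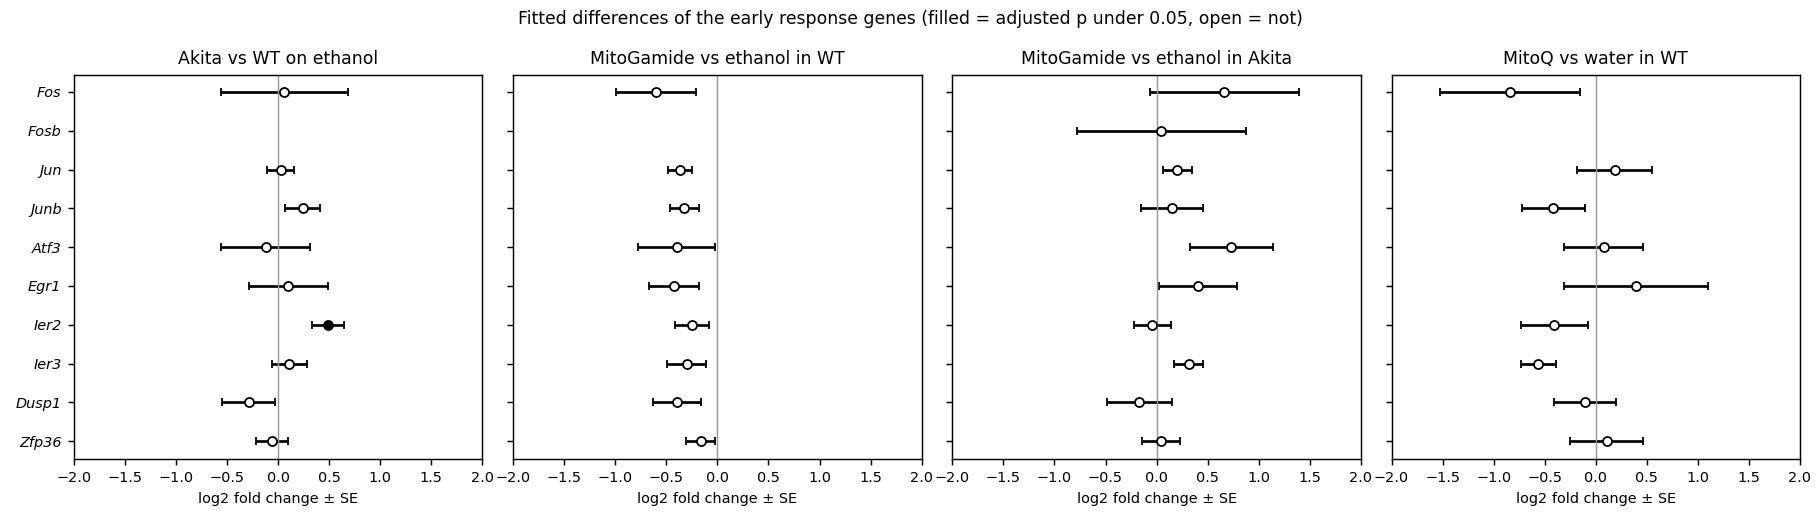
Fitted log2 fold change with its SE for each early response gene tested in 4 comparisons (edgeR, 10 libraries each). The filled point, Ier2 between Akita and WT mice on ethanol at 0.49, passed an adjusted p of 0.05. In WT mice all 9 points for MitoGamide lie left of 0, and in Akita mice 8 of 10 lie right of 0. Fosb was under the count minimum in 3 of the 4.

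MitoQ was compared with water. In Akita mice 0 of 10 early response genes passed edgeR's quasi-likelihood test, beside 0.0% of all genes, and DESeq2 called 0 of the 10. An unadjusted p under 0.05 was reached by 0 of the 10, beside 363 of all 18496 genes tested. Fos was at -0.99 on the log2 scale (SE 0.52, adjusted p = 0.999). Akita mouse 2 on water, which stood apart, had a Fos level of 6.27 CPM, against 0.817 to 1.56 CPM in the other 4. Without it Fos was at -0.19 (SE 0.33) and the median of all 10 genes was 0.02 in place of -0.15, with 0 called. In WT mice 0 of 9 passed, beside 0.0% of all genes, and DESeq2 called 0 of the 9. There 1 early response gene had an unadjusted p under 0.05, beside 575 of all 17881 genes tested. This was Ier3, at -0.56 (SE 0.17, adjusted p = 1.0 by edgeR's quasi-likelihood test). It was 7.29 to 11.3 CPM on MitoQ and 10.3 to 16.9 CPM on water, with an overlap of the ranges. The median over the 9 genes was -0.11 in WT mice, and -0.44 without WT mouse 3 on MitoQ and WT mouse 3 on water, with 8 of 9 lower and 0 called. In that fit 3 of the 9 had an unadjusted p under 0.05, beside 841 of all 17743 genes tested. The difference of the MitoQ effect between genotypes passed for 0 of 9, beside 0.0%, and DESeq2 called 0 of the 9. Of the 9, 0 had an unadjusted p under 0.05, beside 207 of all 18225 genes tested. The difference was positive for 4 genes and negative for 5, and positive for all 9 once the libraries that stood apart were left out (median -0.06 and 0.62), with 0 called. With 1 mouse left out at a time, the median for MitoQ ran from -0.27 (without mouse 5 on MitoQ) to 0.02 (without mouse 2 on water) in Akita mice and from -0.48 (without mouse 3 on MitoQ) to 0.01 (without mouse 2 on MitoQ) in WT mice.

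Ethanol and water vehicle were compared within each genotype. In Akita mice 0 of 10 early response genes passed edgeR's quasi-likelihood test, beside 12.7% of all genes, and DESeq2 called 0 of the 10. An unadjusted p under 0.05 was reached by 1 early response gene, beside 7109 of all 17928 genes tested. This was Ier3, lower on ethanol by 0.56 on the log2 scale (SE 0.22, adjusted p = 0.083), with a log2 fold change of -0.27 (SE 0.13, adjusted p = 0.171) without Akita mouse 2 on water. Ier3 passed edgeR's quasi-likelihood test without Akita mouse 4 on water (adjusted p = 0.0489), as 1 of 10 early response genes. In that fit 6120 of all 17763 genes tested were called. In WT mice 0 of 9 passed, beside 0.0%, and DESeq2 called 0 of the 9. There 1 early response gene had an unadjusted p under 0.05, beside 4959 of all 18092 genes tested. Fos had the largest fitted differences in both, at -1.55 (SE 0.75, adjusted p = 0.142) in Akita and -1.24 (SE 0.53, adjusted p = 0.166) in WT mice. Over the alternatives the Fos difference in Akita mice ran from -2.64 to -0.76, the latter without Akita mouse 2 on water (SE 0.67, adjusted p = 0.441 by edgeR's quasi-likelihood test), and without WT mouse 2 on water that in WT mice was -0.59 (SE 0.44, adjusted p = 0.407). Without the libraries that stood apart the median over the genes tested went from -0.25 to -0.10 in Akita and from -0.14 to -0.15 in WT mice, with 0 called in both. With 1 mouse left out at a time it stayed below 0, from -0.37 (without Akita mouse 3 on ethanol) to -0.10 and from -0.24 (without WT mouse 5 on water) to -0.01 (without WT mouse 4 on water). Fos stood at 1.56, 6.27, 1.29, 0.817 and 1.32 CPM in Akita mice on water, above 4 of the 5 Akita mice on ethanol listed above. In WT mice it stood at 1.58, 3.95, 1.19, 1.06 and 0.308 CPM on water and at 0.705, 0.830, 0.920, 0.427 and 0.483 CPM on ethanol. WT mouse 5 on water was thus below all WT mice on ethanol, and the other 4 above all of them. Without that mouse, 2 of 9 early response genes passed edgeR's quasi-likelihood test, Fos and Junb, with adjusted p of 0.0263 and 0.0402. This was beside 5216 of all 18225 genes tested in that fit. Egr1 was at -0.70 (SE 0.55) in Akita and -0.98 (SE 0.53) in WT mice, and at -0.11 (SE 0.48) without Akita mouse 2 on water and -0.25 (SE 0.42) without WT mouse 2 on water. It was at -1.29 (SE 0.51, adjusted p = 0.109) without Akita mouse 3 on ethanol and -1.23 (SE 0.47, adjusted p = 0.0652) without WT mouse 5 on water. In Akita mice the distal convoluted tubule marker sum was 777 to 905 CPM on ethanol and 971 to 1784 CPM on water, and the vascular smooth muscle sum 20.1 to 35.9 and 37.6 to 52.5 CPM, neither with an overlap. In WT mice the sum of the 8 heat shock protein genes was 2829 to 4095 CPM on ethanol and 1279 to 2820 CPM on water, again without overlap. Their part in the result was not tested.

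The lists of related genes counted here held 26 other early transcription factors, 22 early signalling and secreted genes, 14 other feedback inhibitors, and 20 upstream kinases and serum response factors. Between genotypes on ethanol, edgeR's quasi-likelihood test called, beside 16.4% of all genes, 2 of 21 transcription factors tested, 7 of 21 signalling and secreted genes (6 higher in Akita mice, 1 lower), 1 of 13 feedback inhibitors and 7 of 20 upstream genes (2 higher, 5 lower). The kinase gene Plk2 was higher in Akita mice by 0.60 (SE 0.10, adjusted p = 0.00166) and the antiproliferative gene Btg1 by 0.37 (SE 0.07, adjusted p = 0.00247), and both calls held in all 10 fits that left out 1 mouse, although that of Btg1 was lost in the fit of all 40 libraries (adjusted p = 0.346). On water, 0 of 21 transcription factors, 1 of 21 signalling and secreted genes, 0 of 13 feedback inhibitors and 0 of 20 upstream genes were called, beside 0.552% of all genes. This was the aldosterone- and glucocorticoid-induced kinase gene Sgk1, higher in Akita mice by 1.51 (SE 0.23, adjusted p = 0.015), a call kept in 14 of 17 alternatives but lost without the libraries that stood apart, without Akita mouse 4 and without WT mouse 1 (adjusted p 0.0501 to 0.0589). With MitoGamide in Akita mice, 0 of 22, 21, 13 and 20 genes of these lists were called, beside 1.26% of all genes, and Mafg, a small Maf factor of the AP-1 family, was lower by 0.49 (SE 0.09, adjusted p = 0.0299). Its call held in 7 of 16 alternatives and in 3 of the 10 that left out 1 mouse (adjusted p 0.000116 to 0.104). Between vehicles in Akita mice, 1 of 21 transcription factors, 0 of 21 signalling and secreted genes, 1 of 13 feedback inhibitors and 0 of 20 upstream genes were called, beside 12.7% of all genes. The nuclear receptor gene Nr4a3 was lower on ethanol (log2 fold change -1.20, SE 0.29, adjusted p = 0.0334), as was the MAP kinase phosphatase gene Dusp10 (log2 fold change -0.79, SE 0.21, adjusted p = 0.0373). Nr4a3 kept its call in 3 and Dusp10 in 2 of the 10 fits without 1 mouse, and both lost it with the replicate block and without Akita mouse 2 on water, while the direction held in all alternatives. The share of 12.7% was itself unstable, since the 2283 genes called came down to 1 when any of Akita mice 2, 3 and 5 on ethanol and Akita mice 3 and 5 on water was left out. In the other comparisons of 2 groups and in both tests of a difference between genotypes, none of these genes was called. The 8 heat shock protein genes, a separate stress response, were all called lower in Akita mice on ethanol, with a median log2 fold change of -1.20. On water 0 of the 8 were called, with a median of -0.79. With MitoGamide in Akita mice, 1 of the 8 was called higher (median 0.28), beside 1.26% of all genes. On ethanol against water in Akita mice, 1 of the 8 was called higher as well (median 0.01), beside 12.7% of all genes.

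The SD of log2 CPM between mice of the same group, pooled over the 8 groups, was 1.24 for Fosb, 1.09 for Fos, 0.89 for Egr1 and 0.71 for Atf3. It was 0.52 for Dusp1, 0.45 for Junb, 0.43 for Zfp36, 0.41 for Jun, 0.37 for Ier2 and 0.35 for Ier3. The median over all 17769 genes tested was 0.34, and all 10 genes lay above it, some of them narrowly. The SD exceeded that of 52.9% of all genes for Ier3, 55.5% for Ier2 and 62.1% for Jun. For Atf3, Egr1, Fos and Fosb it exceeded that of 91.8%, 96.2%, 97.9% and 98.4%. Low counts widen the spread, so the biological coefficient of variation estimated by edgeR was also set beside its trend for genes of the same abundance. It was 0.669 against 0.358 for Fos, 0.577 against 0.243 for Egr1, and 0.344 against 0.188 for Dusp1. Of the 9 genes with an estimate, Ier2 alone lay below its trend, at 0.220 against 0.268. Across groups, Fos varied least in WT mice on ethanol, with an SD of 0.46, and most in Akita mice on ethanol, with 1.71. The pooled SD of Egr1 was 0.55 in the ethanol arm and 1.13 in the water arm, and that of Jun 0.24 and 0.53, while the median of all genes was 0.24 and 0.39. Without the 3 libraries that stood apart, the water arm gave 0.94 for Egr1, 0.34 for Jun and 0.33 for the median of all genes.

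**Figure D3:**
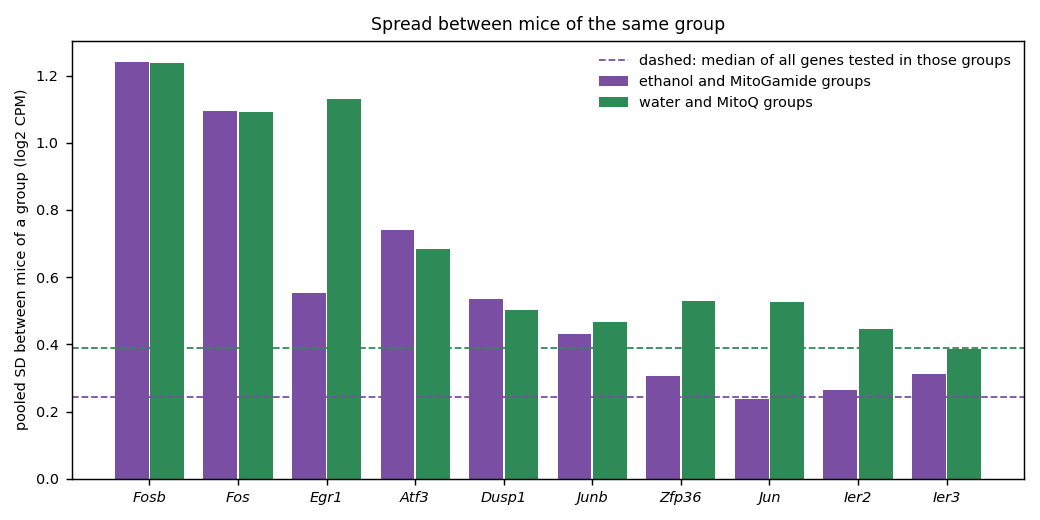
SD of log2 CPM between mice of a group, pooled over the 4 groups of the ethanol arm (purple) and of the water arm (green), for each early response gene. Dashed lines give the median of all 17769 genes tested in the same arm. Fosb and Fos exceed 1 in both arms, and Jun in the ethanol arm and Ier3 in the water arm lie just below their dashed lines.

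High values fell in the same mice. In WT mice on ethanol, mouse 3 had the highest level of its group for 9 of the 10 genes. Akita mouse 3 on ethanol also led for 9, and Akita mouse 5 on MitoGamide, Akita mouse 2 on water and WT mouse 3 on MitoQ led for 8 each. WT mouse 5 on water had the lowest level of its group for 9 genes. These counts depended in part on the scaling between libraries. With library totals alone, WT mouse 3 on ethanol still led for 9, Akita mouse 5 on MitoGamide for 6, and WT mouse 5 on water was lowest for 9. However, Akita mouse 3 on ethanol led for 4, as many as Akita mouse 4 on ethanol. Akita mouse 2 on water led for 3 and Akita mouse 1 on water for 5. WT mouse 3 on MitoQ led for 4 and was lowest for 3, while WT mouse 1 on MitoQ also led for 4. The TMM factor of WT mouse 3 on MitoQ was 0.505. Akita mouse 5 on MitoGamide also had the highest podocyte marker sum of the 40 libraries, 409 CPM, and the highest endothelial sum, 531 CPM, and the part of this in its values was not tested.

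**Figure D4:**
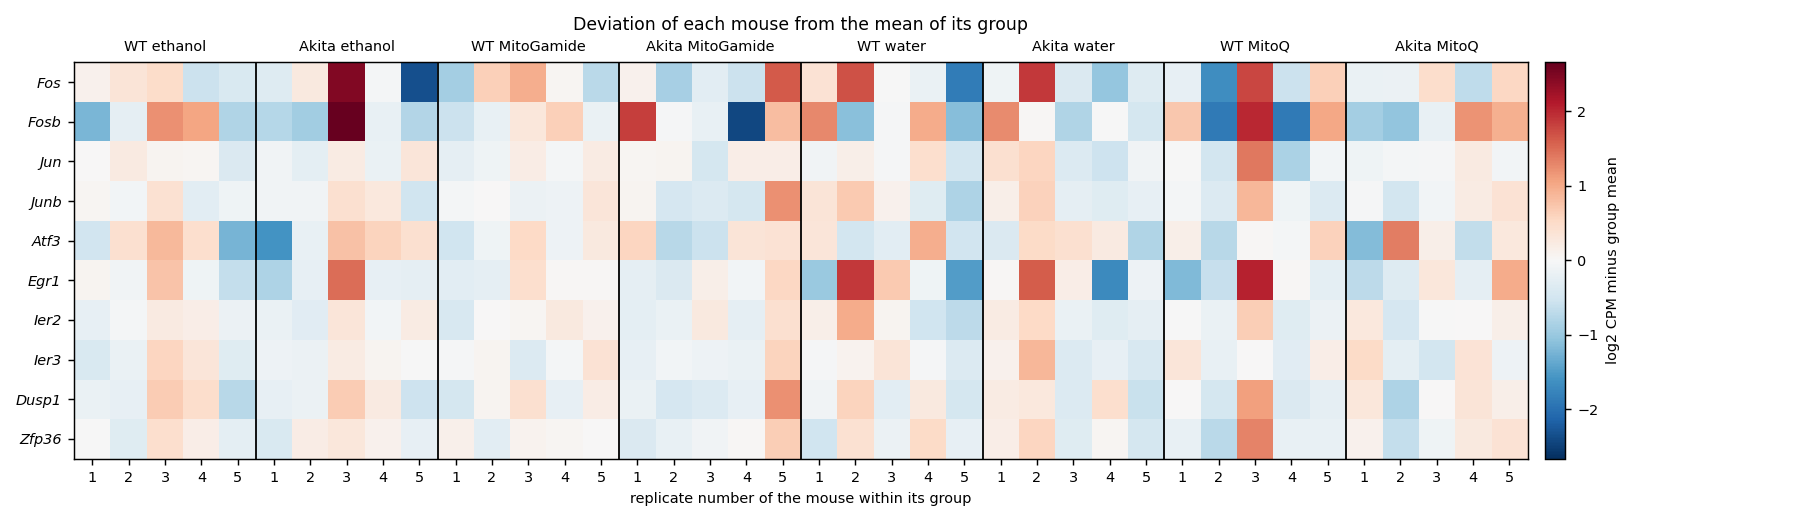
Log2 CPM of each early response gene in each mouse, minus the mean of its group (red above, blue below), with the 8 groups side by side and replicate numbers below. Columns that are mostly red mark mice in which most genes were high, such as WT mouse 3 on ethanol, Akita mouse 5 on MitoGamide and WT mouse 3 on MitoQ. The column of WT mouse 5 on water is blue for all 10 genes.

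The relation was measured as the correlation with Fos over the 40 deviations from the group means, for the other 9 genes and the library total (10 relations). Junb had a Pearson's r of 0.75 (Spearman's rho 0.63, permutation p = 1e-05 and 0.00011, adjusted p = 5e-05 and 0.00055), the former being the smallest p that 100000 resamples within groups can give. Egr1 had r = 0.73 (rho 0.62, permutation p = 1e-05 and 9e-05, adjusted p = 5e-05 and 0.00055). Dusp1, the MAP kinase phosphatase that ends the signal inducing Fos, had r = 0.63 (rho 0.55, permutation p = 7e-05 and 0.00093, adjusted p = 0.000233 and 0.0031). These 3 relations held in each arm and without the 2 mice farthest from the median of Fos, Akita mice 3 and 5 on ethanol. Junb gave r = 0.67 in the ethanol arm, 0.81 in the water arm and 0.75 without both mice, Egr1 0.70, 0.81 and 0.75, and Dusp1 0.70, 0.56 and 0.59.

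Ier2 had r = 0.61 with Fos (rho 0.52, adjusted permutation p = 0.000875 and 0.00542), with 0.34 in the ethanol arm and 0.80 in the water arm. Zfp36 had r = 0.55 (rho 0.40, adjusted permutation p = 0.00206 and 0.0276) and Fosb 0.49 (rho 0.42, 0.0127 and 0.0276). Jun had r = 0.48 (rho 0.37, adjusted permutation p = 0.0127 and 0.0473), with 0.11 in the ethanol arm and 0.69 in the water arm. Without the 2 mice farthest from the median of Fos, both of the ethanol arm, the pooled r was 0.60 for Jun and 0.71 for Ier2. Ier3 had r = 0.34 (rho 0.25, adjusted permutation p = 0.0271 and 0.132) and Atf3 0.30 (rho 0.40, adjusted permutation p = 0.107 and 0.0276), and for these the Pearson and the Spearman test fell on different sides of 0.05. The library total had r = -0.29 with Fos (adjusted permutation p = 0.107). Over all 45 pairs of the 10 genes r was positive, with a median of 0.52 and a range from 0.02 for Atf3 with Ier2 to 0.80 for Dusp1 with Zfp36. The genes of a library share its scaling factor, and with library totals alone the median r of the 9 genes with Fos was 0.45 in place of 0.55. Without the libraries that stood apart it was 0.47, with r of 0.69 for Junb, 0.67 for Egr1, 0.59 for Dusp1, 0.53 for Ier2, 0.47 for Fosb, 0.43 for Zfp36, 0.32 for Jun, 0.29 for Atf3 and 0.25 for Ier3. Marker sums had r of -0.33 (proximal tubule), 0.36 (distal convoluted tubule), 0.26 (podocyte), 0.24 (vascular smooth muscle) and -0.03 (leukocyte) with Fos over the same 40 mice, given as a description. The thick ascending limb sum had r = -0.24 and the sum of the heat shock protein genes r = -0.30.

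**Figure D5:**
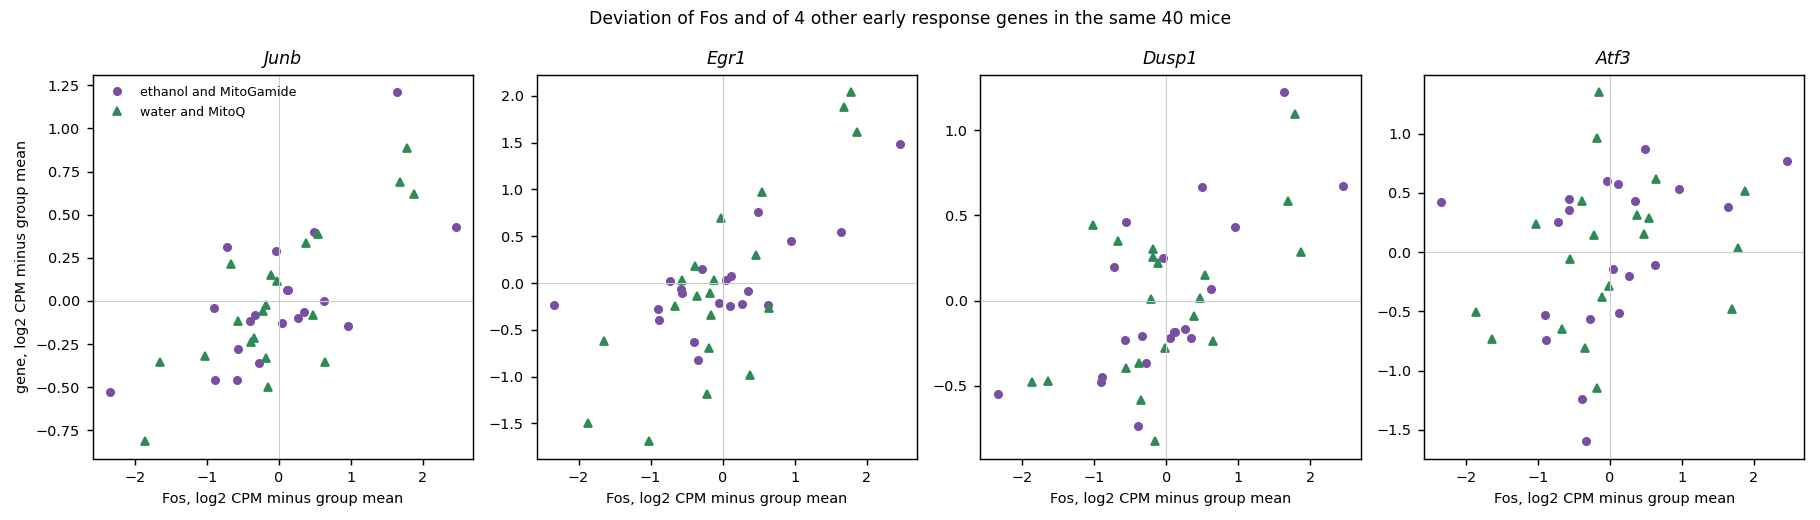
Deviation of Junb, Egr1, Dusp1 and Atf3 from their group means against that of Fos, in log2 CPM, 1 point per mouse (circles ethanol arm, triangles water arm). The points rise along a line for Junb and Egr1 (r = 0.75 and 0.73) and scatter widely for Atf3 (r = 0.30).

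The genes outside this group that varied most like it were ranked by the correlation of their deviations with the mean standardised deviation of the 9 early response genes above the count minimum, over 40 mice and 17760 genes. The first was the clock gene Per1, itself induced by CREB signalling, with r = 0.81, and the second the orphan nuclear receptor gene Nr4a1, an early gene, with r = 0.80. Elmsan1 (0.79), Tns2 (0.79), Zim1 (0.79), the hormone-sensitive lipase gene Lipe (0.77), Slc8b1 (0.77), Nfatc1 (0.77), Rusc2 (0.77) and Nfkbiz (0.76) completed the first 10. Of the early transcription factors, signalling and secreted genes and feedback inhibitors listed above, 55 were ranked and 43 of them (78.2%) had a positive r, with a median of 0.36, beside 52.8% and 0.03 over all genes ranked. As examples from these same mice, Nr4a1 stood at 8.64 CPM in WT mouse 3 on ethanol and at 1.55 to 4.39 CPM in the other 4 mice of that group. In Akita mice on MitoGamide, Nr4a1 stood at 19.2 CPM in mouse 5 and at 2.06 to 6.50 CPM in the other 4, and Per1 at 106 CPM and at 22.4 to 49.1 CPM.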

How the data were processed

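Renal cortex RNA had been depleted of ribosomal RNA and sequenced from 40 mice, 5 per group. The authors trimmed reads with Skewer, mapped them to GENCODE mouse release 25 (GRCm38) with kallisto 0.46.1 and summed transcripts per gene. The deposited file thus holds estimated counts, as whole numbers, neither scaled nor pooled. Positions and exon lengths came from GENCODE release 21, where 99.5% of identifiers were found. Depth bounds precision: Fos, Fosb and Atf3 had few counts.

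For every contrast its libraries alone entered a fit in R 4.3.3 with edgeR 4.0.16 (TMM, minimum mean of 10 counts, two-sided quasi-likelihood test, Benjamini-Hochberg over all genes, called at adjusted p under 0.05) in place of DESeq2, the tool of the published methods, which (version 1.42.0) was an alternative. Levels are TMM-scaled CPM, and log2 CPM used a prior count of 0.5. The procedure was tested on simulated data for Akita against WT mice on ethanol, with a fixed spread. The changed genes there had larger differences than most fitted here and more counts than Fos, Fosb and Atf3. That test does not show what could be detected for the early response genes. Correlations used two-sided permutation within groups. Alternatives were RLE factors, other filters, a replicate block, 1 fit of 40 libraries, libraries left out and, chosen after seeing the data, leaving out the 3 libraries that stood apart. The 10 genes and all gene lists were chosen with earlier results of these data known. Other genes are named if called (at most 3 per contrast) or among the 10 most like the group. Single Nr4a1 and Per1 values were chosen after they were seen. A gene that this rule selects, and list counts that include it, are not reported here.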

Additional observations from a re-analysis of the deposited data

Results flagged for a closer look

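In 80 sets of 5 mice (10 genes in 8 groups), 9 had a highest or lowest mouse whose gap to the next, divided by the range of the group on the log2 scale, exceeded Dixon's 95% value of 0.71. Chance alone gives about 1 in 20 such sets, or 4 of 80, and the 9 are not independent, since they come from 6 mice.

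Akita mouse 3 on ethanol had 2.82 CPM of Fosb, against 0.206 to 0.364 CPM in the other 4 mice, and 8.47 CPM of Egr1, against 1.69 to 2.60 CPM. Akita mouse 5 on MitoGamide had 27.3 CPM of Ier3, against 15.6 to 17.2 CPM, and 64.9 CPM of Dusp1, against 20.4 to 24.5 CPM. WT mouse 3 on MitoQ had 14.9 CPM of Junb, against 6.31 to 7.75 CPM, and 36.8 CPM of Zfp36, against 8.93 to 12.9 CPM, and this is the library with a TMM factor of 0.505. Akita mouse 3 on MitoGamide had a low Jun level of 18.6 CPM, against 26.7 to 29.1 CPM. Akita mouse 4 on MitoQ had a high Jun level of 28.5 CPM, against 22.4 to 23.6 CPM. Akita mouse 2 on MitoQ had a low Dusp1 level of 14.4 CPM, against 25.8 to 32.6 CPM. With library totals in place of TMM scaling, WT mouse 3 on MitoQ had 7.52 CPM of Junb, against 6.34 to 8.31 CPM, and 18.5 CPM of Zfp36, against 8.97 to 14.4 CPM, both under Dixon's value. The Egr1, Ier3 and high Jun values also fell under it, and the other 4 of the 9 exceeded it.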

How the results depend on the processing

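In the 2 comparisons with a call, the number of early response genes called stayed within 1.5 times its value in 13 of 27 alternatives, and in the others it stayed at 0 in 138 of 140. For Akita against WT mice on ethanol, 1 was called, against 0 without a filter, 0 in the fit of all 40 libraries, and 0 to 1 when 1 mouse was left out. The replicate block gave 2 there, with Dusp1 lower as well (adjusted p = 0.0356 by edgeR's quasi-likelihood test), beside 2566 of all 17747 genes tested. For any difference among the 8 groups, 2 were called, against 4 with DESeq2, 1 with the replicate block and 1 to 3 without a replicate number. Of all 17769 genes tested, DESeq2 called 12439 and the replicate block 11367. Leaving out 1 mouse gave 0 to 1 for ethanol against water in Akita mice and 0 to 2 in WT mice. Deviations of mice with the same replicate number had correlations of -0.41 to 0.61, and at most 3 of the 5 pairs of a comparison were over 0.1, so the replicate block was not taken as a pairing. The median SD (0.48) and the median correlation with Fos (0.55) ranged from 0.44 to 0.54 and from 0.45 to 0.63.

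Counts over all genes also moved in several comparisons. Akita against WT on ethanol gave 2910 genes, 873 in the 40-library fit and 2170 to 2787 without 1 mouse. On water it gave 101, with 354 by DESeq2, 32 with the replicate block, 543 in the 40-library fit, 23 without the libraries that stood apart and 32 to 94 without 1 mouse. MitoGamide in Akita mice gave 214, with 1022, 0 and 41 in the first 3 settings and 0 to 802 without 1 mouse. In WT mice DESeq2 called 73 and leaving out 1 mouse 0 to 4. MitoQ in WT mice gave 2 with DESeq2, 1 with the block and 27 in the 40-library fit. Ethanol against water in Akita mice gave 2283, with 4264 by DESeq2, 1352 without a filter, 0 with the block, 132 without the libraries that stood apart and 1 to 6496 without 1 mouse; in WT mice it gave 0, with 724 by DESeq2, 2 with the block, 1570 in the 40-library fit and 0 to 5216. Any difference gave 11432, and 6414 to 10805 without a replicate number. The cause was not tested. Counts of 0 to 63 for Fos and Fosb limit what can be seen.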
